A study of Mus musculus with 3 samples.

Results

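The genes described here encode 10 proteins of blood clotting, its restraint and clot lysis. They were chosen by symbol as *F2*, *F3*, *F5*, *F7*, *F10*, *Proc*, *Pros1*, *Serpinc1*, *Thbd* and *Plg*, and all 10 were found among the 17633 genes with a read in at least 1 library. All 10 had reads in endoderm and epiblast, and 8 had reads in mesoderm. The libraries were made from ICR mouse embryos at E7.5, without treatment, by dissecting the embryonic region into endoderm, mesoderm and epiblast after enzyme digestion. The endoderm at this stage can hold visceral and definitive endoderm cells. Each germ layer is 1 library of RNA from many embryos, so no difference below has a replicate check. The libraries held 40.8 M to 42.7 M reads counted on genes.

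Clotting starts when tissue factor, a membrane protein, binds factor VII and activates factor X, which with factor V as cofactor turns prothrombin into thrombin. Antithrombin, and protein C with its cofactor protein S, hold thrombin formation back, and thrombomodulin on the cell surface directs thrombin towards protein C. Plasmin, made from plasminogen, dissolves fibrin. In the adult most of these plasma proteins are made by the liver. The yolk sac endoderm of the embryo is known to make many liver-type plasma proteins before a liver exists, and clotting proteins of this set are also known to signal to cells through protease-activated receptors.

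The genes of the plasma proteins, that of protein S aside, had 92.3% or more of their summed RPKM in endoderm. RPKM, the reads of a gene per kilobase of its length and scaled to the reads counted on genes in its library, was highest in endoderm for 9 of the 10, beside 35.7% of all genes. *Plg*, *F2*, *F5*, *F10* and *Serpinc1* were higher in endoderm than in both other layers, by 17.9-fold or more. *Pros1* and *F3* differed between layers by 2.09-fold or less, and *Thbd* had most of its reads in mesoderm. The RPKM of the 10 genes summed to 80.6 (endoderm), 8.97 (mesoderm) and 4.26 (epiblast).

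**Figure D1:**
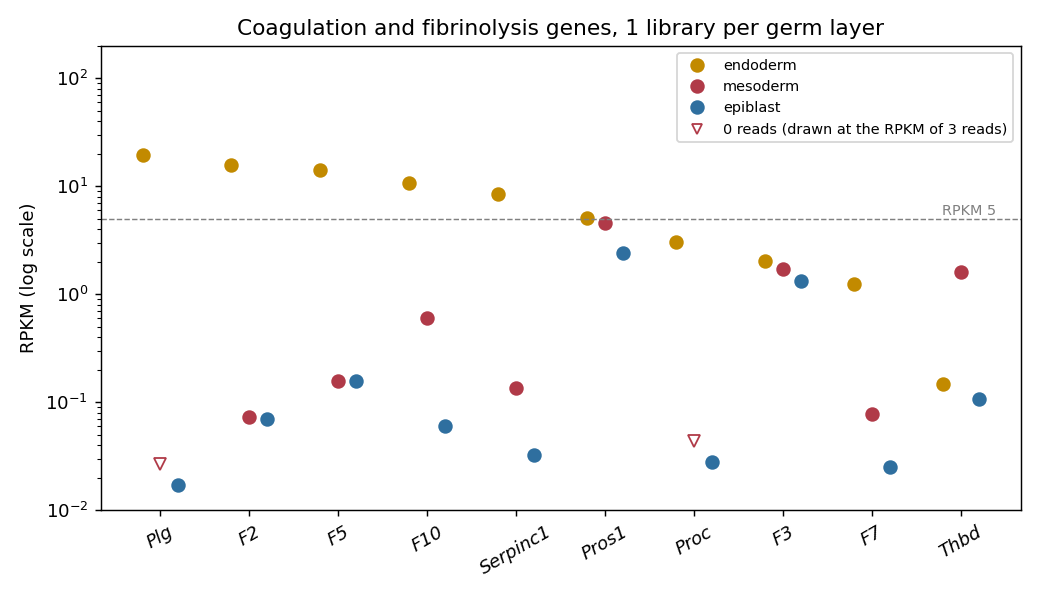
RPKM (log axis) of each gene in the endoderm, mesoderm and epiblast libraries, 1 point per library, ordered by the endoderm level, with the dashed line at RPKM 5. *Plg*, *F2*, *F5*, *F10* and *Serpinc1* lie above the line in endoderm and at 0.600 or lower in the other layers, *Pros1* and *F3* lie close together, and *Thbd* is highest in mesoderm. Open triangles stand for 0 reads and are drawn at the RPKM that 3 reads would give.

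Calls between 2 libraries used the criteria of the study, which were RPKM above 5 in at least 1 of them, a fold above 2 and an FDR below 0.001 by Audic and Claverie's exact test of read numbers. This test holds counting noise alone and so compares libraries, not germ layers. Between endoderm and mesoderm 5 of the 10 genes were called higher in endoderm, beside 7.44% of all genes tested. None was called higher in mesoderm, beside 4.41%. Between endoderm and epiblast 6 of the 10 were called higher in endoderm, beside 8.02%, and none higher in epiblast, beside 4.58%. Between mesoderm and epiblast none was called in either direction, beside 2.58% higher in mesoderm and 2.45% higher in epiblast. *F3*, *F7*, *Proc* and *Thbd* stayed below RPKM 5 throughout and could not be called. None of the 10 passed RPKM 5 in mesoderm or epiblast, where the highest was *Pros1* at 4.59 and 2.44. The criteria thus allowed no call higher in mesoderm or in epiblast for these genes. Their absence beside the shares of all genes cannot show whether such differences exist. The median log2 ratio over the 10 genes was 5.08 for endoderm over mesoderm and 6.33 for endoderm over epiblast, with counts under 3 set to 3, and over all genes tested it was -0.03 and -0.02. The calls of the 2 comparisons with endoderm share the endoderm library.

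**Figure D2:**
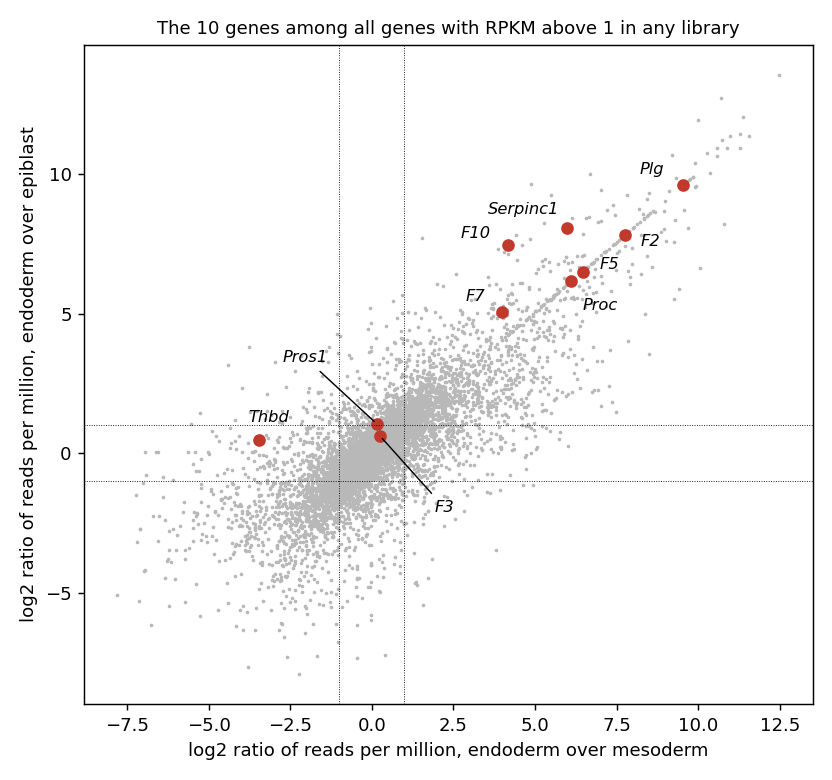
Log2 ratio of reads, scaled to the library total, for endoderm over mesoderm (horizontal) and endoderm over epiblast (vertical), 1 point per gene with RPKM above 1 in any library, with the 10 clotting and fibrinolysis genes in red and dotted lines at a fold of 2. Counts under 3 were set to 3. The points of *Plg*, *F2*, *F5*, *Serpinc1*, *Proc*, *F10* and *F7* lie at the upper right, *Pros1* and *F3* near the centre, and *Thbd* on the left.

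The stretch before the start held more CG dinucleotides in *Pros1* and *F3* than in the 5 other genes with a promoter entry. *Pros1* and *F3* had reads spread over the layers, and the 5 others had theirs mostly in endoderm. RefSeq promoter windows on GRCm38.p6, from 250 bases before to 50 after the start, were at hand for 7 of the 10 genes, all but *Proc*, *Thbd* and *Plg*. The first 270 bases of the window are printed for 5 genes, to show the difference in CG dinucleotides, which are in capitals. Of these genes, 3 had their reads mostly in endoderm and 2 had reads spread over the layers.
F2 promoter, chr2:91636438-91636707, minus strand: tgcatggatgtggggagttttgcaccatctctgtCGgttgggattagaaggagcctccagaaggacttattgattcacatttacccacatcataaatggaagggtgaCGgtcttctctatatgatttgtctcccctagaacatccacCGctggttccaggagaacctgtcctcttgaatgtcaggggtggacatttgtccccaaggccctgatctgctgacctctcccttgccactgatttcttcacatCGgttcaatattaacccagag
F5 promoter, chr1:164151585-164151854, plus strand: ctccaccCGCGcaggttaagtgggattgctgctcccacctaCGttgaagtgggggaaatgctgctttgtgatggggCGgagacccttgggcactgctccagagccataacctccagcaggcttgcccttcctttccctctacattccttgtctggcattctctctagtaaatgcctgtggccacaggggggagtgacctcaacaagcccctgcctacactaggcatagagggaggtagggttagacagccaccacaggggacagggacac
F10 promoter, chr8:13037058-13037327, plus strand: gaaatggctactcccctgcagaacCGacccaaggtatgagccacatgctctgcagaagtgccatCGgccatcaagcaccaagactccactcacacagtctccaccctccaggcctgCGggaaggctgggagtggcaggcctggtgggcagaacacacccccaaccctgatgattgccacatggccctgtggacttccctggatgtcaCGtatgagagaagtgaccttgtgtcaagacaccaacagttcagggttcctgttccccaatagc
Pros1 promoter, chr16:62854057-62854326, plus strand: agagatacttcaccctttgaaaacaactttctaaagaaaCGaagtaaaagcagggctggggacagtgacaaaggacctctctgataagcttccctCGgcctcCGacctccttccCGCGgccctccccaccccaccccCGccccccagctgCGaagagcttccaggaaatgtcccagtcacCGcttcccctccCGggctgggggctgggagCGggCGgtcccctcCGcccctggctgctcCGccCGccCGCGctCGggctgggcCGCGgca
F3 promoter, chr3:121723287-121723556, plus strand: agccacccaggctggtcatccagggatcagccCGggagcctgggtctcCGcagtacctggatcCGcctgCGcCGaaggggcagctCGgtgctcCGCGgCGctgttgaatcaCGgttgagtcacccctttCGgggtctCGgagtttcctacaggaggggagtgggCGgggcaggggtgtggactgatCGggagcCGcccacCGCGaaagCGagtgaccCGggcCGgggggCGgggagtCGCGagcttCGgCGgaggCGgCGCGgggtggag

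The stretches of *F2*, *F5* and *F10* hold 4 CG dinucleotides each, and so do those of *F7* and *Serpinc1*, which are not printed. Those of *Pros1* and *F3* hold 19 and 28. Over all 32851 windows of the same length the median was 6, with 4 or fewer in 41.8% of them and 19 or more in 23.4%. The GC content was 43.7% for *Serpinc1*, 48.5% for *F2*, 56.7% for *F7*, 57.4% for *F10* and 57.8% for *F5*. It was 65.9% for *Pros1* and 71.1% for *F3*, and the median of all windows was 52.6%. This is a description of 7 windows and no test was made.

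The letters of sites of known endoderm and liver factors were searched on both strands of the whole windows. GTTAAT, a half-site of HNF1, was in 1 of the 7, in *F2*. There it lies on the opposite strand and begins 9 bases into the transcript by the RefSeq start. The *F2* gene of GENCODE M21 begins further on, at 91636414 on the minus strand, so by that annotation the match lies before the gene. GTTAAT is in 7.10% of all windows. No window of the 7 held the HNF4 letters CAAAGTCCA, found in 0.475% of all windows, or CAAAGTTCA, found in 0.390%. None held the FOXA letters TGTTTAC, found in 3.65%, or TATTTAC, found in 3.04%, and none held AGATAA of the GATA factors, found in 11.2%. With a single match among the 7 windows, none overlapped. A match is not a bound site, and a window without one says nothing of the factor.

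Among the proteases of the clotting cascade, *F2* had the highest level in endoderm. *F2*, which encodes prothrombin, lies on chromosome 2 from 91625320 to 91636414 (GENCODE M21, GRCm38) and had 1315 endoderm, 6 mesoderm and 6 epiblast reads. Its RPKM was 15.9, 0.0739 and 0.0707, and values of 3 libraries are given in this order, endoderm first and epiblast last, from here on. Endoderm was 214.9-fold higher than mesoderm (95% counting interval 98.5 to 587) and 224.7-fold higher than epiblast (102.96 to 613). Mesoderm and epiblast did not differ beyond counting error, with an interval of their ratio from 0.279 to 3.91. In endoderm 99.8% of the length of the *F2* transcript was covered by reads. The intervals hold counting error only.

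*F10* encodes factor X, on which the tissue factor and contact routes of clotting meet. It had 1205 endoderm, 66 mesoderm and 7 epiblast reads, for an RPKM of 10.7, 0.600 and 0.0609. Endoderm was 17.9-fold higher than mesoderm (14.0 to 23.3) and 176.5-fold higher than epiblast (85.4 to 440). Unlike *F2*, *F10* also differed between mesoderm and epiblast beyond counting error, by 9.86-fold (4.53 to 25.5), but at this level the pair could not be called. The 66 reads in mesoderm covered 74.0% of the transcript length.

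*F7*, whose product binds tissue factor and starts clotting, was low in every layer. It had 97 endoderm, 6 mesoderm and 2 epiblast reads, and an RPKM of 1.25, 0.0786 and 0.0251. Endoderm was 15.9-fold above mesoderm (7.03 to 44.3) and 49.7-fold above epiblast (13.4 to 416), and the RPKM was too low for a call. Mesoderm and epiblast did not differ beyond counting error (ratio 3.14, interval 0.561 to 31.8).

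*F7* and *F10* are neighbours on chromosome 8, from 13026034 to 13035809 and from 13037308 to 13056676, on the same strand and 1498 bases apart. *Proz*, the gene of protein Z, a cofactor for the inhibition of factor Xa, follows 4237 bases after *F10*. It had 488 endoderm, 2 mesoderm and 9 epiblast reads, and its endoderm RPKM of 4.89 lay just under the criterion. All 3 genes were thus highest in endoderm. The flanking *Mcf2l* did not share this order, with 350, 115 and 477 reads, and neither did *Pcid2* on the other side, with 1636, 1852 and 2211. *Atp11a*, next to *Mcf2l*, was highest in endoderm, with 3244, 876 and 944 reads.

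*F5* encodes factor V, the cofactor of factor Xa, and had the most reads of the 10 genes. It lies on chromosome 1 from 164151838 to 164220277 and had 4332 endoderm, 48 mesoderm and 50 epiblast reads. Its RPKM was 14.0, 0.159 and 0.158. In endoderm this puts it below *F2* per length although it has more reads. In mesoderm and epiblast it lay above *F2*, which had 0.0739 and 0.0707 there. Endoderm was 88.5-fold higher than mesoderm (66.6 to 120) and 88.8-fold higher than epiblast (67.3 to 120). Its level in mesoderm and epiblast did not differ beyond counting error (ratio 1.004, interval 0.661 to 1.52). Its exons overlap those of *Gm16548*, a non-coding RNA with 8 reads in endoderm and none elsewhere. Whether strand was used in counting is not given in the sources used here.

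*F3*, the gene of tissue factor, stood apart from the factors it acts on. The gene spans chromosome 3 from 121723537 to 121735048 and had 160 endoderm, 132 mesoderm and 106 epiblast reads, and its RPKM in the same order was 2.05, 1.72 and 1.32. Endoderm and mesoderm did not differ beyond counting error (1.19-fold, 0.938 to 1.51) under the library totals, but did under TMM scaling (1.29-fold, 1.01 to 1.63). Endoderm was 1.55-fold above epiblast (1.20 to 1.997), and mesoderm was 1.30-fold above epiblast, with an interval from 1.0006 to 1.70 whose lower end lay at a ratio of almost 1 and fell to 0.998 under TMM scaling. Tissue factor RNA was thus found at a low level in all 3 layers, whereas the RNA of factors VII, X and V and of prothrombin was mostly in 1.

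Of the inhibitors, *Serpinc1*, the gene of antithrombin, followed the clotting factors. It lies on chromosome 1 from 160978585 to 161005863, 3145975 bases from *F5*. It had 777 endoderm, 12 mesoderm and 3 epiblast reads, and an RPKM of 8.59, 0.135 and 0.0324. Endoderm was 63.5-fold higher than mesoderm (36.1 to 123) and 265.5-fold higher than epiblast (90.5 to 1290). Mesoderm was 4.18-fold above epiblast (1.13 to 23.1). Its exons overlap those of *Zbtb37* on the other strand, which had 166, 119 and 134 reads and so a flatter profile.

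*Proc*, the gene of protein C, had 212 endoderm, 0 mesoderm and 2 epiblast reads, and an RPKM of 3.05 in endoderm. Its place is on chromosome 18 from 32123126 to 32139570. A count of 0 allows up to 3 reads, which makes endoderm at least 69.3-fold higher than mesoderm. Endoderm was 108.7-fold higher than epiblast, with an interval from 29.7 to 903. In endoderm 96.1% of the transcript length was covered, but the level was under the RPKM criterion.

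*Pros1*, the gene of protein S, did not follow *Proc*. It is found on chromosome 16 from 62854307 to 62929346 and had 694 endoderm, 613 mesoderm and 341 epiblast reads, and its RPKM in the same order was 5.10, 4.59 and 2.44. Endoderm and mesoderm did not differ beyond counting error (1.11-fold, 0.995 to 1.24) under the library totals. Under TMM scaling endoderm was 1.20-fold above mesoderm (1.08 to 1.34), so that whether these layers differ depends on the scaling. Endoderm was 2.09-fold above epiblast (1.83 to 2.38), which met the criteria by a small margin, and mesoderm was 1.88-fold above epiblast (1.64 to 2.15), which did not. The call of *Pros1* was lost with a fold above 4, with RPKM above 10, with a pseudocount of 1 RPKM, and with the exact test of edgeR once variation between replicates was assumed (coefficient 0.4). In mesoderm *Pros1* had the highest RPKM of the 10 genes, and in epiblast as well.

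*Thbd*, the gene of thrombomodulin, was the only one of the 10 with its highest level in mesoderm. The gene is on chromosome 2 from 148404466 to 148408188 and had 23 endoderm, 245 mesoderm and 17 epiblast reads, and its RPKM in the same order was 0.149, 1.61 and 0.107. Mesoderm was 10.9-fold above endoderm (7.07 to 17.5) and 15.1-fold above epiblast (9.22 to 26.3). Endoderm and epiblast did not differ beyond counting error (1.39-fold, 0.709 to 2.77). The reads covered 96.5% of the transcript length in mesoderm, 40.6% in endoderm and 33.5% in epiblast. At RPKM above 1 in place of 5, *Thbd* was called higher in mesoderm than in both other layers.

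Thrombomodulin is known from endothelium, trophoblast and parietal endoderm, so the markers of these cells were read beside it. Reichert's membrane, which carries the parietal endoderm, and the tissue outside the embryonic region had been cut away before the layers were separated. All 6 endothelial markers were highest in mesoderm, with summed RPKM of 7.53 there, 1.18 in endoderm and 0.988 in epiblast. *Pecam1* had 48, 342 and 37 reads, *Tek* 6, 419 and 90 and *Cdh5* 25, 208 and 10. The difference was smaller in *Esam*, with 44, 93 and 17, and between endoderm and mesoderm in *Tie1*, with 14, 37 and 0. *Emcn* had only 4 reads in mesoderm and 0 in endoderm and epiblast. None of the 6 passed RPKM 5, so none could be called. The 8 trophoblast markers summed to RPKM values of 27.5 (endoderm), 7.60 (mesoderm) and 2.65 (epiblast). Of the 8, *Plac1* (19.9 in endoderm), *Esx1* (7.11) and *Gcm1* were highest in endoderm, *Ascl2* and *Elf5* in epiblast, and *Prl3d1*, *Prl2c2* and *Tpbpa* were listed in no library. The 7 parietal endoderm markers summed to 527.6, 271.5 and 116.3, with 5 highest in endoderm and 2 in mesoderm. The part of such cells in the level of *Thbd* was not tested. In whole-tissue RNA, fewer cells of a type and less RNA per cell cannot be told apart.

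*Plg*, the gene of plasminogen, had the highest RPKM of the 10 genes in endoderm, and endoderm held 99.9% of its RPKM summed over the 3 libraries. It lies on chromosome 17 from 12378608 to 12419385 and had 2264 endoderm, 0 mesoderm and 2 epiblast reads, with an RPKM of 19.7 in endoderm and 0.0170 in epiblast. Endoderm was at least 740.1-fold higher than mesoderm, counting 3 reads there, and 1161-fold higher than epiblast (321 to 9589). In endoderm 23.7% of the listed genes had an RPKM as high as *Plg* or higher. Its exons overlap those of *Slc22a3* on the other strand, which had 3, 4 and 38 reads.

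Within endoderm the RPKM fell in the order *Plg*, *F2*, *F5*, *F10*, *Serpinc1*, *Pros1*, *Proc*, *F3*, *F7* and *Thbd*. Levels of different genes depend on the gene length used by the authors, and this order carries no replicate error. In mesoderm the 3 genes above RPKM 1 were *Pros1*, *F3* and *Thbd*, and in epiblast *Pros1* and *F3*.

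The level of the endoderm genes outside endoderm was set beside that of 7 visceral endoderm markers (*Afp*, *Ttr*, *Apoa1*, *Apob*, *Amn*, *Cubn* and *Hnf4a*). All 7 markers were highest in endoderm, with a summed RPKM of 5276 there, 3.14 in mesoderm and 2.08 in epiblast. Each was in mesoderm at 0.0375% to 0.292% of its endoderm RPKM, and in epiblast at 0.0150% to 0.184%. *F10* was in mesoderm at 5.59% of its endoderm RPKM (4.29% to 7.16%), *F7* at 6.31% (2.26% to 14.2%), *Serpinc1* at 1.57% (0.810% to 2.77%) and *F5* at 1.13% (0.832% to 1.501%). These 4 lay above the marker range with their whole intervals. In epiblast the same held for *F5* at 1.13% (0.834% to 1.49%), *F10* at 0.567% (0.227% to 1.17%) and *F7* at 2.01% (0.240% to 7.46%). The marker range is that of the measured values, and the interval of *Amn*, the highest marker, reached 0.264% in epiblast, past the lower ends of *F10* and *F7*. In mesoderm it reached 0.392%. The interval of *F2* reached into the marker range in mesoderm (0.170% to 1.02%) and in epiblast (0.163% to 0.971%). In epiblast those of *Serpinc1* (0.0775% to 1.11%), *Proc* (0.111% to 3.37%) and *Plg* (0.0104% to 0.312%) did so too. Definitive endoderm markers were in mesoderm at higher shares, from 1.71% to 34.4% in the 4 that were highest in endoderm. The part of carried-over cells in these levels was not tested.

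**Figure D3:**
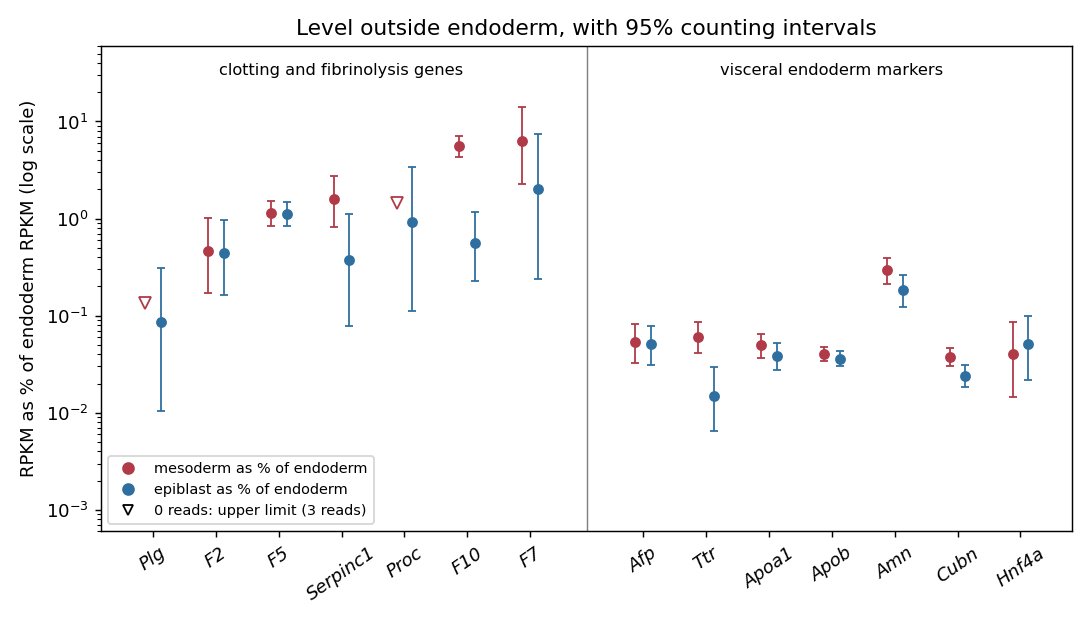
RPKM in mesoderm and epiblast as a percent of the endoderm RPKM (log axis), for the 7 genes whose reads were mostly in endoderm on the left and 7 visceral endoderm markers on the right, with 95% counting intervals and open triangles for the limit that 0 reads allow. *F10* and *F7* in mesoderm lie at 5.59% and 6.31%, above the markers, which do not exceed 0.292%.

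The 5 mesoderm markers, with *Foxf1* listed as *Foxf1a*, were all highest in mesoderm, and the 5 epiblast markers were all highest in epiblast. Markers of blood platelets and their precursors summed to 53 endoderm, 88 mesoderm and 31 epiblast reads over 6 genes, with *Ppbp*, *Gp1bb* and *Gp9* listed in no library. The 4 markers of maternal decidua had 123, 233 and 399 reads, and *Prl8a2* and *Prl3c1* were not listed.

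Other genes of the pathway were read from 5 lists with 41 genes, of which 38 had reads. Of the 41, 25 were highest in endoderm (35.7% of all genes), 10 were called higher in endoderm than in mesoderm (7.44% of all genes tested) and 11 higher in endoderm than in epiblast (8.02%). In the opposite direction 2 were called higher in mesoderm (4.41% of all genes tested) and 1 higher in epiblast (4.58%), each against endoderm, shares near or below the background. In the third pair 4 were called higher in mesoderm (2.58%) and 1 higher in epiblast (2.45%).

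Of 12 other clotting factors, the 3 chains of fibrinogen, the substrate of thrombin, were called higher in endoderm in both comparisons and the other 9 in none. *Fgb* had 4665 endoderm, 2 mesoderm and 3 epiblast reads, *Fgg* had 2555, 2 and 3, and *Fga* had 2792, 0 and 0. The RPKM of *Fgb* in endoderm was 71.1, above that of each of the 10 genes. *F9*, *F11* and *Klkb1* were listed in no library. The tables list only genes with a read, so that 0 reads and a gene missing from the annotation used cannot be told apart. *F12* had 4 reads in endoderm. *F8*, the gene of factor VIII, had 39 endoderm, 92 mesoderm and 89 epiblast reads.

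Of 7 other inhibitors and anticoagulant receptors, *Tfpi*, the inhibitor of the tissue factor and factor VIIa complex, was called. It had RPKM values of 22.0 (endoderm), 5.13 (mesoderm) and 0.743 (epiblast). It was 4.30-fold higher in endoderm than in mesoderm (3.94 to 4.69) and 6.90-fold higher in mesoderm than in epiblast. *Tfpi* and *F3* were therefore unlike in profile, with *F3* at 2.05, 1.72 and 1.32.

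In the fibrinolysis list of 12 genes, *Serpinf2* and *Plat* were called higher in endoderm in both comparisons. *Serpinf2*, which encodes the plasmin inhibitor alpha-2-antiplasmin, had 2640 endoderm, 2 mesoderm and 3 epiblast reads. *Plat*, the tissue plasminogen activator, had an RPKM of 13.1, 5.95 and 1.14, and its fold of 2.20 over mesoderm had an interval from 1.999 to 2.42. The other activator, *Plau*, had 14, 18 and 9 reads. *S100a10* and *Plgrkt*, known as plasminogen receptors, were called higher in endoderm than in epiblast, at 4.14-fold and 2.12-fold. *Anxa2*, the partner of *S100a10*, was called higher in mesoderm, with an RPKM of 24.0 there against 6.34 in endoderm and 8.21 in epiblast. *Serpine2* was not called, at 12.01, 16.8 and 14.7.

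Of 4 receptors that thrombin and other proteases cut, none was highest in endoderm. *F2r*, which encodes the thrombin receptor PAR1, had RPKM values of 9.48 (endoderm), 50.1 (mesoderm) and 26.0 (epiblast). It was 5.28-fold higher in mesoderm (4.98 to 5.61) and 2.75-fold higher in epiblast (2.58 to 2.93) than in endoderm, and both were called. *F2rl1*, which encodes PAR2, had an RPKM of 6.995, 1.71 and 8.32 and was called lower in mesoderm than in both other layers. *F2rl2* and *F2rl3* had at most 27 reads.

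Factors II, VII and X and proteins C, S and Z are known to need carboxylation by a vitamin K dependent enzyme before they can bind membranes. *Ggcx*, this carboxylase, had RPKM values of 12.7 (endoderm), 4.09 (mesoderm) and 3.16 (epiblast). *Vkorc1*, which regenerates vitamin K, had 86.0, 18.3 and 20.01, and *Furin*, a protease that removes propeptides, 45.1, 17.5 and 12.1. These 3 of 6 genes were called higher in endoderm in both comparisons. *Lman1*, a cargo receptor for factors V and VIII, had 70.4, 40.2 and 35.7 and stayed under the fold criterion, at 1.75-fold over mesoderm and 1.97-fold over epiblast. The second lies closer to the criterion than the shift of 0.11 (log2) that TMM scaling gives endoderm against epiblast. *Mcfd2* and *Vkorc1l1* were not called. Each of the 6 was above RPKM 1 in all 3 layers, unlike *F2*, *F7*, *F10* and *Proc*.

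**Figure D4:**
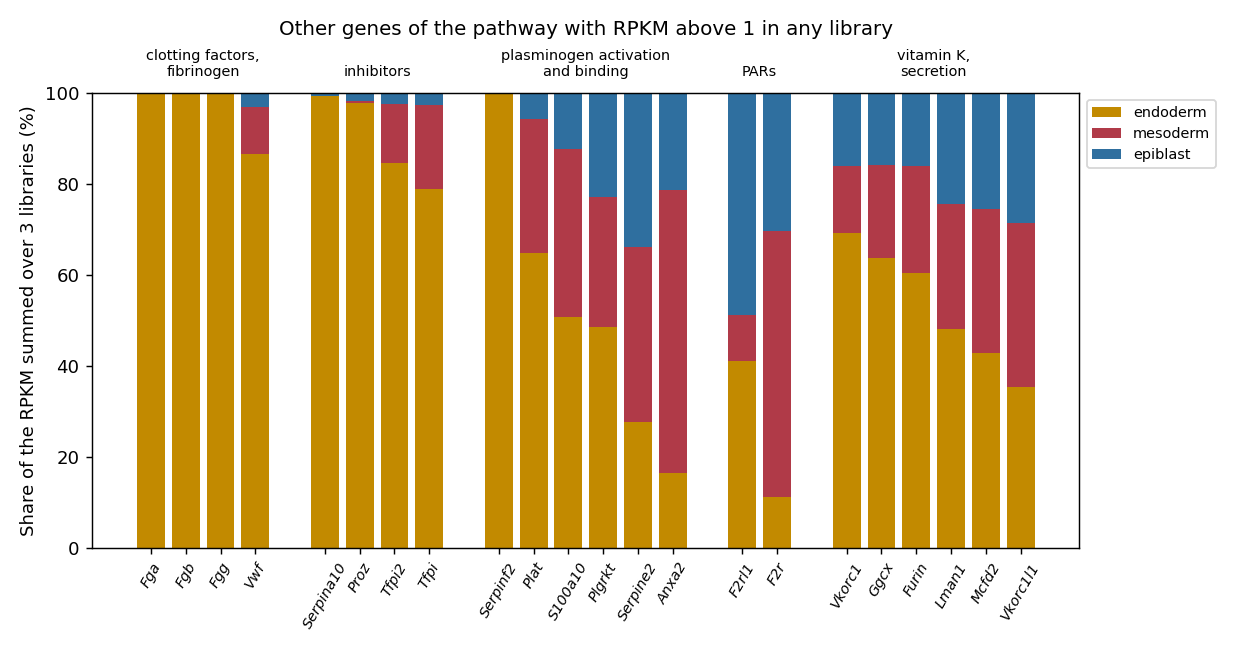
Share of the RPKM summed over the 3 libraries that falls in endoderm, mesoderm and epiblast (percent), 1 bar per gene with RPKM above 1 in any library, grouped by list. *Fga*, *Fgb*, *Fgg* and *Serpinf2* are almost wholly in endoderm, *F2r* and *Anxa2* mostly in mesoderm, and the vitamin K and secretion genes are in all 3.

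For the 6 genes above RPKM 5 in a library, those most like them in profile were sought among the 9135 genes with RPKM above 5 in any library, by the Euclidean distance between the shares of the summed RPKM in the 3 libraries. *F3*, *F7*, *Proc* and *Thbd* were left out. For *Plg* the nearest were *Hnf4a*, *Fgb* and *Apoa4*, and 70 genes lay within a distance of 0.01. For *F2* they were *Gc*, *Slc7a8* and *Myo5b*, with 66 genes within it. *Gc*, the vitamin D binding protein, had an RPKM of 5.78, 0.0270 and 0.0258. For *F5* they were *Fcgrt*, *Myo6* and *Cideb* (25 genes), and for *Serpinc1* they were *Slc34a2*, *Xlr5b* and *Adora2b* (17 genes). *F10* had 2 genes within this distance, *Kdelr3* and *Maf*, followed by *Pdzk1ip1*. *Kdelr3* had an RPKM of 32.6, 1.82 and 0.232. For *Pros1* they were *Ckap4*, *Parvb* and *Prkar2a*. These distances rest on 3 libraries.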

How the data were processed

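RNA of the endoderm, mesoderm and epiblast was sequenced by the authors as paired-end Illumina reads, 1 library per germ layer. The authors deposited for each gene the RPKM, the count of uniquely mapped reads behind it, the length of the gene and the percent of it that reads covered. The RPKM scales the count by length and by the reads counted on genes. The counting program and annotation of these tables are not given in the sources used here. The submitters' processing notes name TopHat, mm10 and mm9, without their roles.

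The values were used as deposited. With 1 library per germ layer there was no dispersion for the quasi-likelihood test of edgeR. The exact test of Audic and Claverie was run on each pair over all genes seen in at least 1 of the 2, with Benjamini-Hochberg adjustment, under the thresholds stated in the report. Intervals of ratios are exact (Clopper-Pearson, 95%) and cover counting error only. Ratios against 0 reads are bounds against 3 reads in that library. The depth of 40.8 M to 42.7 M counted reads sets these limits. Alternatives were other RPKM and fold thresholds, no FDR criterion, TMM and median-of-ratios scaling, a pseudocount of 1 RPKM and edgeR's exact test with an assumed coefficient of variation of 0.4. The calls were tested on simulated counts.

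The 10 genes and all lists were chosen with earlier results of these data known. Named genes were these 10, genes of 5 pathway lists that were called or that describe their list, marker genes, the 3 nearest profiles and the neighbours of *F7* and *F10*. The CG content of promoters was compared after the values were seen. The values of 1 gene of the fibrinolysis list are not reported here. *Plgrkt* and *Foxf1* were matched through older symbols. Positions come from GENCODE M21 (GRCm38) and promoters from RefSeq (GRCm38.p6). Python 3.11.15, SciPy 1.17.1, R 4.3.3 and edgeR 4.0.16 were used.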

Additional observations from a re-analysis of the deposited data

How the results depend on the processing

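With RPKM above 1 in place of 5, 8 of the 10 genes were called between endoderm and mesoderm in place of 5 (*F7* and *Proc* higher in endoderm and *Thbd* higher in mesoderm were added), and 1 (*Thbd*) between mesoderm and epiblast in place of 0. Every other alternative, and that one for endoderm against epiblast, left the counts of called genes within 1.5 times: 4 or 5 for endoderm against mesoderm, 4 to 8 for endoderm against epiblast, and 0 for mesoderm against epiblast. For mesoderm against epiblast the 0 was set by the RPKM criterion, as none of the 10 genes passed RPKM 5 in either library. That it stayed the same is no sign of a stable result. *Serpinc1* was lost with RPKM above 10, and *Pros1* with the settings named beside it. TMM and median-of-ratios scaling kept 9 genes highest in endoderm and changed no call and no direction. They raised endoderm against mesoderm by 0.11 on the log2 scale and against epiblast by 0.11, which is small beside the differences of the called genes other than *Pros1*. It is not small for *F3* and *Pros1*: under both scalings endoderm and mesoderm then differed beyond counting error in these genes, and mesoderm and epiblast no longer did in *F3*. A pseudocount of 1 RPKM changed no direction but shrank all 26 log2 ratios, for *F2* over mesoderm from 7.75 to 3.97 and for *Plg* over epiblast from 10.18 to 4.35. With 1 library per germ layer no replicate could be left out, and no alternative measures how embryos or dissections differ. Depth limits most the folds over a layer with few reads: over epiblast, with 2 reads each, the intervals ran from 13.4 to 416 for *F7*, from 29.7 to 903 for *Proc* and from 321 to 9589 for *Plg*.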

Other observations

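Several pathway genes under RPKM 5 in every library had clear differences in reads. *Vwf*, the gene of von Willebrand factor, best known from endothelium and platelets, had 373 endoderm, 43 mesoderm and 14 epiblast reads. It was 8.51-fold higher in endoderm than in mesoderm (95% counting interval 6.19 to 11.95), whereas the 6 endothelial markers were all highest in mesoderm. *Serpina10*, the protein Z dependent inhibitor of factor Xa, had 131, 0 and 1 reads, beside the 488, 2 and 9 of *Proz*. *Tfpi2* had 138, 21 and 4 reads, and was 6.44-fold higher in endoderm than in mesoderm (4.05 to 10.7). *Cpb2*, which encodes the fibrinolysis inhibitor TAFI, had 26 reads in endoderm and none elsewhere. *F2rl3*, which encodes the receptor PAR4, had 2 endoderm, 27 mesoderm and 2 epiblast reads, and *F13a1* had 0, 18 and 2, so that both had most of their reads in mesoderm. *Procr*, the protein C receptor, had 12, 24 and 28 reads, and its endoderm and mesoderm levels did not differ beyond counting error (interval of the ratio 0.981 to 4.48), while epiblast was 2.28-fold above endoderm (1.12 to 4.91).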
